A study of Mus musculus with 7 samples.

Results

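Many mouse genes start at more than 1 promoter, and the most upstream and the most downstream start of the same gene were compared here for DNase I hypersensitivity in podocytes. Protein-coding genes of chromosomes 1 to 19 with at least 2 annotated starts of protein-coding transcripts more than 5 kb apart were chosen from the annotation alone (GENCODE vM21, mm10), and 4789 of 20722 genes met this rule, or 23.1%. Each gene gave an upstream and a downstream window of 500 nt on either side of the transcription start site (TSS), 9578 windows in all, next to 52092 TSS windows over every protein-coding gene. The distance between both starts had a median of 22331 bp, with quartiles of 10245 and 57158 bp. At the edge of the rule the nearest gene inside had its starts 5001 bp apart and the nearest outside 4998 bp.

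Alternative promoters let a gene be switched on by different factors in different cells and can change the first exon, and with it the start of the protein. A promoter in use is usually free of nucleosomes over a short stretch, which DNase I cuts more readily than packed chromatin. Promoters rich in CpG dinucleotides are typically open in many cell types, whereas CpG-poor promoters are more often open only in the cells that use them.

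The cells were a mouse podocyte line immortalised by a thermosensitive T antigen, podocytes being epithelial cells of the glomerular filter, and were studied as a model of diabetic nephropathy. After growth arrest they were kept for 36 h in normal glucose (NG, 5 mM), in 25 mM glucose plus a nontargeting mimic at 50 nM (HG+NT) or in 25 mM glucose plus a miR-93 mimic at 50 nM (HG+miR-93), with 2 samples in each group and 1 genomic DNA input shared by all. The labels name no mimic for NG, so glucose and transfection cannot be told apart between NG and the other groups. The comparison of HG+NT with NG therefore covers high glucose together with any effect of transfection. That of HG+miR-93 with HG+NT asks what the miR-93 mimic does.

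Where 3 values are given in a row they stand for NG first, then HG+NT, then HG+miR-93. The deposited data were 1 list of DNase-Seq peaks per condition, called on the samples of a condition together, so no spread between samples could be had and no difference between conditions was tested. The lists held 1036304 (NG), 846027 (HG+NT) and 900109 peaks (HG+miR-93), with calls down to a listed p of 0.9, so that nearly every window was overlapped by a peak. The fragments at each peak's summit were recovered from the listed fold and p-value. The depth came to 2.24 (NG), 3.85 (HG+NT) and 5.15 times (HG+miR-93) that of the input, and the median peak held 6, 10 and 12 fragments. Along the genome, windows on chromosomes 8, 15 and 19, and less so 6, stood higher in both high-glucose lists than in NG. Of the podocyte markers Nphs1, Synpo, Podxl, Cd2ap, Magi2 and Ptpro, the best TSS window had a pileup of 3.13 to 8.04 in NG, against 2.68 to 5.81 for Pecam1, Kdr, Pdgfrb, Umod, Slc34a1, Aqp2 and Ptprc, markers of other kidney or blood cells. The median marker stood at percentile 58.1, 51.4 and 54.0 of all TSS windows for the podocyte set and at 29.7, 40.2 and 49.1 for the other set. The ranges of both sets overlapped in every list, so these markers did not set podocytes clearly apart from the other cell types.

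The contrast between both starts of a gene is visible in the sequence itself. The 100 bases before each start are shown for 2 genes whose upstream window was the higher (Mrtfa, a coactivator of serum response factor, and Steap1, a membrane protein of the metalloreductase family), for 2 whose downstream window was the higher (Iffo2, of the intermediate filament family, and Fhl2, a LIM-domain protein) and for 2 textbook cases of alternative promoters (Pparg, the nuclear receptor of fat cell formation, and Runx3, a runt-domain transcription factor). They run 5′ to 3′ on the gene's strand (GRCm38, the assembly of mm10), end at the base before the TSS, and have CG dinucleotides in capitals.
Mrtfa upstream, chr15:81190758-81190857, minus strand: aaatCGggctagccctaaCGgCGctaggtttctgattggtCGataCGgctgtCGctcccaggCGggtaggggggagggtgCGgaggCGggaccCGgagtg
Mrtfa downstream, chr15:81045547-81045646, minus strand: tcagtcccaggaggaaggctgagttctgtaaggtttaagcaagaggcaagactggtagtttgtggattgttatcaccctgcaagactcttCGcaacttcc
Steap1 upstream, chr5:5749327-5749426, minus strand: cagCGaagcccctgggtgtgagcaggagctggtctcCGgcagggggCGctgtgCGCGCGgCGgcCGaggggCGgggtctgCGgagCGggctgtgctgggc
Steap1 downstream, chr5:5740402-5740501, minus strand: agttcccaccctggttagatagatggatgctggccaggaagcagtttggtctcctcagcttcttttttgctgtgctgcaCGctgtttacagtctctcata
Iffo2 upstream, chr4:139530448-139530547, plus strand: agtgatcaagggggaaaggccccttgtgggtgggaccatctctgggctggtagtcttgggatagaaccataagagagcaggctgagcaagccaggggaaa
Iffo2 downstream, chr4:139574620-139574719, plus strand: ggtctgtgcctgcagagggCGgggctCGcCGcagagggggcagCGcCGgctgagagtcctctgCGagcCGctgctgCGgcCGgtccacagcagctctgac
Fhl2 upstream, chr1:43196985-43197084, minus strand: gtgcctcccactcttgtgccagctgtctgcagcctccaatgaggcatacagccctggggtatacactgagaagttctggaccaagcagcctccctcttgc
Fhl2 downstream, chr1:43163962-43164061, minus strand: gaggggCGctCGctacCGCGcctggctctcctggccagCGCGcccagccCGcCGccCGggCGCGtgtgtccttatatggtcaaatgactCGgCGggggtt
Pparg upstream, chr6:115360851-115360950, plus strand: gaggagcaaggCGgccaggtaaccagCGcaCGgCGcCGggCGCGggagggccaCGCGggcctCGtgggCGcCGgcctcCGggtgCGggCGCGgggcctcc
Pparg downstream, chr6:115421966-115422065, plus strand: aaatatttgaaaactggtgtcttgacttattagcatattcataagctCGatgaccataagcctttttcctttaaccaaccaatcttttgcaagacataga
Runx3 upstream, chr4:135120552-135120651, plus strand: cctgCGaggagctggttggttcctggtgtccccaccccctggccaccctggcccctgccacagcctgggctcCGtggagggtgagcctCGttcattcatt
Runx3 downstream, chr4:135152396-135152495, plus strand: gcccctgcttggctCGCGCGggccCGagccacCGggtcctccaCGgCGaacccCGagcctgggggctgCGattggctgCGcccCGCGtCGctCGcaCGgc
In Mrtfa the upstream stretch held 10 CG dinucleotides and the downstream stretch 1, and in Steap1 the counts were 11 and 1. The order was turned round in Iffo2, with 0 upstream and 9 downstream, and in Fhl2, with 0 and 13. Pparg had 16 upstream and 1 downstream, and Runx3 had 3 and 15.

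Upstream starts were CpG-rich far more often than downstream starts. A window was called CpG-rich when at least 50% of its bases were G or C and its CpG count was at least 0.6 of that expected from its base composition. This held for 53.6% of upstream windows, 6.43% of downstream windows and 43.5% of all TSS windows. The median CpG count was 53 upstream and 13 downstream. The letters GGGCGG, the core of the Sp1 site, were found on either strand in 67.6% of upstream, 24.6% of downstream and 59.6% of all TSS windows. TATAAA, the core of the TATA box, was present in 26.7%, 43.9% and 30.6%, and TGANTCA, an AP-1 site with any base at its centre, in 16.3%, 26.0% and 19.2%. CCAAT was found in 67.5%, 73.0% and 69.0%. These shares describe letters in the windows and not bound sites. The annotation of the starts differed as well, since 43.6% of downstream starts (2088) came only from transcripts tagged as incomplete at the 5′ end, against 0.355% of upstream starts (17). The downstream start lay inside an exon of another transcript of the gene in 2788 genes and inside an intron in 1996. Another protein-coding gene started within 11.2% of upstream and 0.71% of downstream windows.

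In most genes the peak that stood for the upstream window was the higher. The authors' fold, fragments over the input's local mean with 1 added to each, was taken at the peak of highest fold overlapping each window. The summit of that peak lay inside 63.3%, 62.1% and 62.0% of upstream windows. It lay inside only 39.0%, 35.2% and 35.5% of downstream windows, so many values come from summits outside the window. By fold the upstream window was higher in 61.0% of genes (95% Wilson interval 59.6 to 62.4), 55.9% (54.4 to 57.3) and 52.5% (51.1 to 53.9). The downstream window was higher in 34.4%, 38.7% and 42.5%, and the rest were equal, among them 141, 202 and 193 genes with the same peak standing for both windows. By pileup, the recovered fragments scaled to the input's depth and not divided by it, the upstream window was higher in 69.7%, 68.0% and 68.5%. The median pileup was 6.25, 5.19 and 5.05 upstream and 3.57, 3.64 and 3.69 downstream. The input's own local mean was also higher upstream, with medians of 3 against 2 in NG and 2.8 against 2 in each of the other lists, and its part in the fold was not tested. These intervals cover counting error over genes of 1 list and not the spread between samples.

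Summits told the same order. A summit lay inside 70.3%, 68.2% and 68.2% of upstream windows and 52.3%, 44.8% and 44.9% of downstream windows. Over all TSS windows it was 66.9%, 63.1% and 62.8%. With the lists cut to their 50000 strongest peaks by p-value, ties kept, the shares were 29.2%, 31.5% and 26.6% upstream and 6.41%, 9.10% and 9.02% downstream. Over all TSS windows they were 25.7%, 27.3% and 23.0%. Such a strong summit was found at both starts in 74, 121 and 129 genes, and at the downstream start alone in 233, 315 and 303.

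Both starts were also set beside the inside of the gene. In 4422 genes the midpoint between both starts had no protein-coding TSS within 1500 nt and served as a background measured the same way. By pileup the upstream window exceeded the midpoint in 74.3% of genes, 72.0% and 72.5%. The downstream window exceeded it in 47.1%, 51.0% and 52.2%. In each share set against the midpoint, tied genes were kept in the total and counted as not exceeding it. By fold the shares were lower upstream, at 62.7%, 57.7% and 54.3%, and were 49.0%, 49.9% and 49.6% downstream. A summit lay inside 42.7%, 33.2% and 35.1% of midpoint windows, below the shares at downstream starts. Where both lists of a pair had their summit inside the window, the summits of NG and HG+NT lay within 150 nt of each other in 54.8% of upstream windows (52.8 to 56.8), 42.7% of downstream windows (39.5 to 46.0) and 39.4% of midpoint windows (35.2 to 43.8). For HG+NT and HG+miR-93 the shares were 61.0%, 52.1% and 44.8%.

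Where 1 of both starts was CpG-rich, it had the higher pileup in most genes, upstream or downstream. In the 2457 genes with a CpG-rich upstream window alone, the upstream pileup was higher in 90.5%, 87.6% and 87.3%, and the median pileup in NG was 8.49 upstream against 3.57 downstream. In the 199 genes with a CpG-rich downstream window alone, the downstream pileup was higher in 77.4%, 75.4% and 79.4%, with medians in NG of 4.02 upstream and 7.59 downstream. With both windows CpG-rich (109 genes) the upstream window was higher in 47.7%, 46.8% and 45.9% and the downstream window in 43.1%, 46.8% and 43.1%. With neither (2024 genes) the upstream window was higher in 50.8%, 50.1% and 51.8% and the downstream window in 33.4%, 34.0% and 36.1%. The rest were equal. By fold the classes lay closer together, with the upstream window higher in 73.2%, 32.7%, 50.5% and 49.6% of genes in NG for the classes in the order just given. In HG+miR-93 these shares were 59.2%, 41.7%, 45.0% and 45.9%. The input's local mean moved with CpG content too: its median in NG was 3.4 at the upstream and 2 at the downstream window of the first class, and 2 and 3 in the second.

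**Figure D1:**
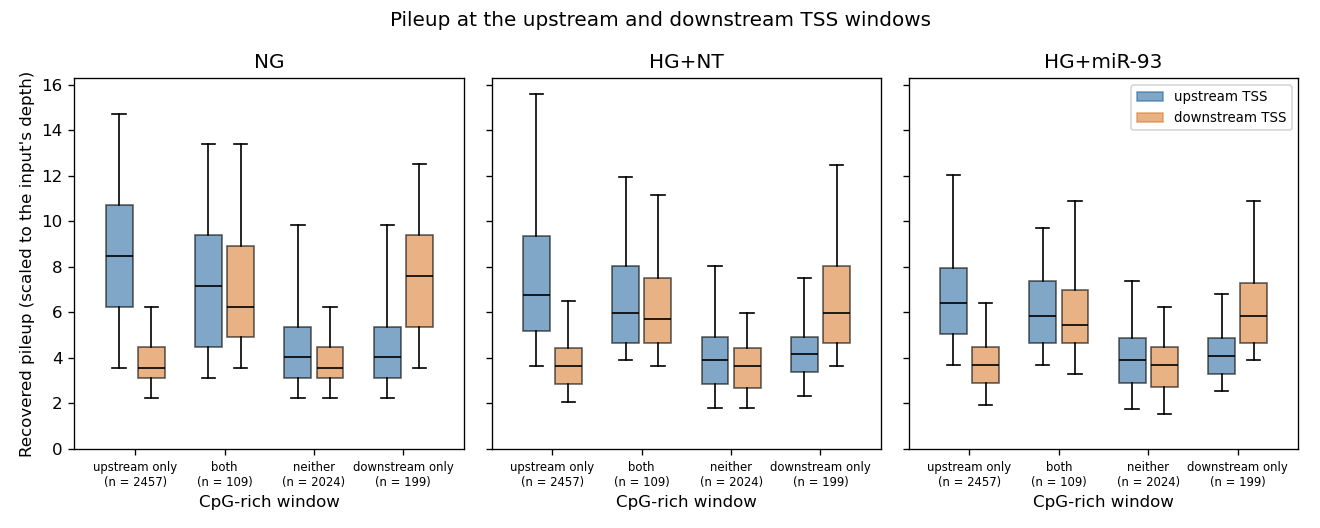
Recovered pileup (vertical axis, scaled to the depth of the input) at upstream and downstream TSS windows in each list, by which window was CpG-rich; boxes give the median and quartiles and whiskers the 5th and 95th percentiles over genes. The CpG-rich window stands higher in both single classes, at medians of 8.49 against 3.57 and of 7.59 against 4.02 in NG.

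**Figure D2:**
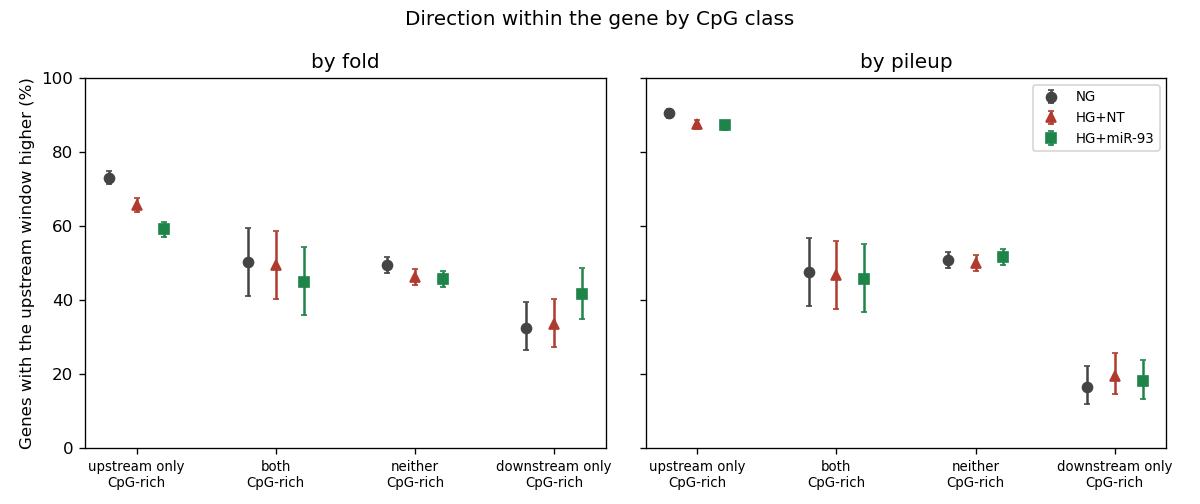
Percent of genes whose upstream window was higher (vertical axis) by CpG class, by the authors' fold (left) and by pileup (right); points are the 3 lists and bars 95% Wilson intervals over genes. The shares by pileup run from 90.5% to 16.6% in NG across the classes, and those by fold from 73.2% to 32.7%.

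Within a class, the share also went with the completeness of the transcript. Among genes with a CpG-rich upstream window alone, the upstream pileup was higher in NG in 94.4% of the 1417 genes with an incomplete downstream start and in 85.4% of the 1040 with a complete one. Among genes with neither window CpG-rich, the shares were 66.1% of 651 and 43.6% of 1373. The downstream pileup was higher in 24.4% and 37.7% of these, and the rest were equal. By distance, in NG the upstream pileup was higher in 60.9% of genes with starts 5 to 10 kb apart and in 68.9% to 75.5% of those in the wider distance classes.

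Counting error left most single genes unresolved. With exact 95% Poisson intervals on the fragments, the upstream and downstream intervals were apart with upstream higher in 644 genes (13.4%), 842 (17.6%) and 848 (17.7%). They were apart with downstream higher in 31, 48 and 53 genes. In all 3 lists at once the upstream window was apart and higher in 393 genes, 370 of them with a CpG-rich upstream window. The downstream window was so in 11 genes, 9 of them with a CpG-rich downstream window, none with a CpG-rich upstream window and none with an incomplete downstream start.

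Of these 11 genes, 3 are described here, chosen after their values were seen. Atf3, a stress-induced transcription factor of the ATF and AP-1 group, had a downstream pileup of 13.8 (95% Poisson interval 9.41 to 19.7), 19.2 (15.1 to 24.1) and 11.7 (8.90 to 15). Its upstream pileup was 2.68, 4.67 and 4.47. Rbpj, the DNA-binding effector of Notch signalling, had downstream values of 14.7, 11.7 and 10.9 and upstream values of 3.13, 3.90 and 2.92, though its downstream summits lay just outside the window at -697, -561 and -632 nt. Iqgap1, a scaffold protein of the actin cytoskeleton, had 9.38, 8.57 and 7.97 downstream and 2.23, 2.86 and 3.11 upstream. In each of these genes the downstream pileup stood above the upstream pileup in every list, whereas by fold the upstream start of Atf3 was the higher in HG+miR-93 (log2 ratio 0.20).

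The genes with the largest mean ratio of folds in each direction, among those with one direction in all lists and a summit in the higher window, had a CpG-rich window at the higher start in each gene described. They were chosen by these ratios, so their values are a description. Upstream, these included Steap1, Ep400 (a chromatin remodeller) and Mrtfa. Ep400 had an upstream pileup of 14.7, 17.9 and 16.1, and a downstream pileup of 2.23, 3.12 and 3.11. Steap1 had 6.70, 7.27 and 7.0 upstream and 2.23, 2.86 and 2.53 downstream. Mrtfa had 13.4, 14.0 and 12.2 upstream and 3.13, 6.49 and 5.25 downstream. The intervals of both starts were apart in every list in Ep400 and Mrtfa, whereas those of Steap1 overlapped in NG and HG+NT. The downstream starts of Steap1 and Ep400 came from incomplete transcripts, and that of Mrtfa did not.

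Downstream, the rule named Iffo2, Fhl2, Ndel1 (a dynein regulator) and Snd1 (a nuclease-domain protein of RNA metabolism), all with a CpG-rich downstream window and a CpG-poor upstream one. Snd1, with its starts only 5220 bp apart, had a downstream pileup of 13.4 (9.04 to 19.1), 15.6 (11.9 to 20.1) and 11.9 (9.07 to 15.2), and an upstream pileup of 1.79 (0.487 to 4.57), 2.60 (1.25 to 4.78) and 3.11 (1.78 to 5.05). Its summits lay at -139, -229 and -151 nt from the downstream start, a negative position being before it. Ndel1 had 12.1, 13.5 and 9.72 downstream and 4.47, 3.64 and 3.30 upstream. Iffo2 had 8.49, 16.6 and 10.9 downstream and 2.23, 3.12 and 3.11 upstream. The intervals of Snd1 were apart in every list and those of Ndel1 and Iffo2 in both high-glucose lists. Fhl2 had 9.38, 7.53 and 7.58 downstream and 3.57, 4.15 and 5.05 upstream, and its intervals overlapped in all lists.

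**Figure D3:**
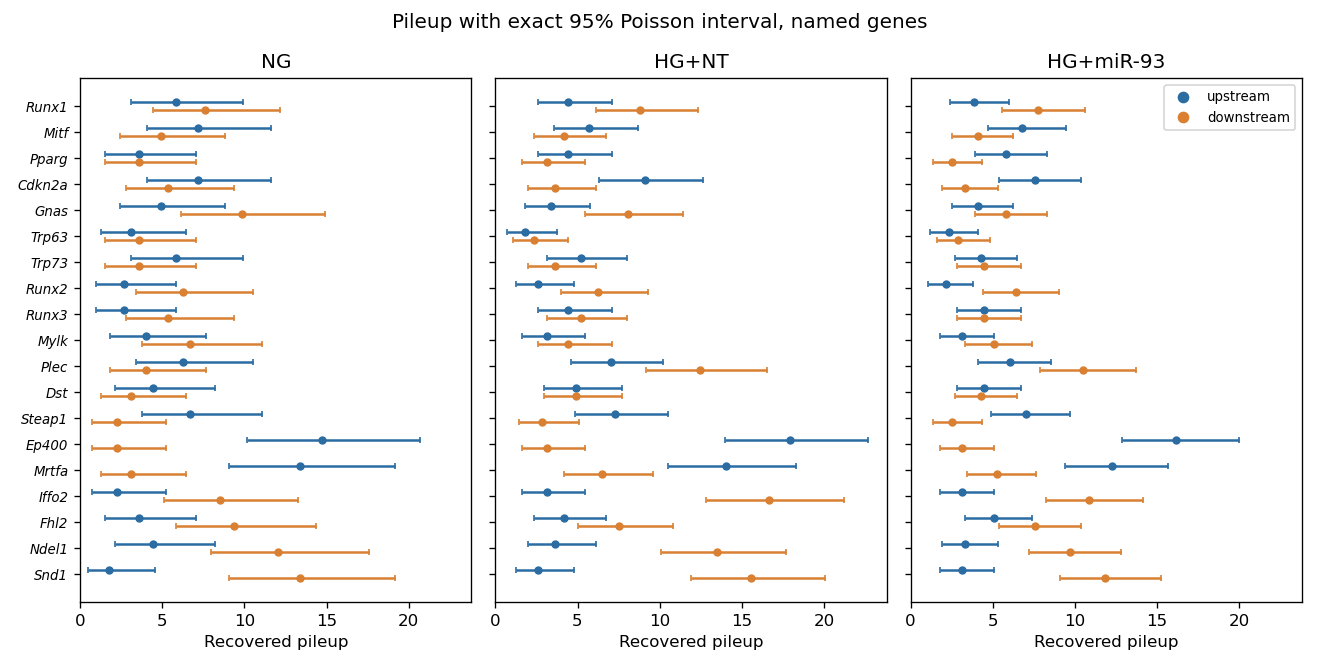
Recovered pileup (horizontal axis) at the upstream and downstream starts of 12 classical and 7 strongly one-sided genes in each list, with exact 95% Poisson intervals. In Ep400 and Mrtfa the upstream and in Snd1 the downstream interval stands clear of the other in all lists, while most classical genes overlap.

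The textbook genes of alternative promoter use showed little of this contrast by pileup. Of 40 such genes listed, 35 were members, 15 with a CpG-rich upstream and 4 with a CpG-rich downstream window. By pileup the upstream window was higher in 18, 20 and 20 of them, with a median log2 ratio (1 added to each pileup) of 0.10, 0.12 and 0.07, against 0.52, 0.34 and 0.30 over all members. Both intervals were apart in every list with upstream higher in 1 of the 35 and with downstream higher in none. Over all 4789 members these counts were 393 and 11, so a set of 35 would hold few of either. The downstream start was incomplete in 11 of the 35. By fold the upstream window was higher in 18, 23 and 17 of them and the downstream window in 16, 12 and 18. The median log2 ratio by fold was 0.006, 0.30 and -0.08, against 0.19, 0.10 and 0.05 over all members, so it was the larger in HG+NT.

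Among the runt-domain genes, Runx2, the regulator of bone formation, had a downstream pileup of 6.25, 6.23 and 6.41 and an upstream pileup of 2.68, 2.60 and 2.14, and the intervals were apart in HG+miR-93. In NG no summit lay inside either window of Runx2. Runx1, the regulator of blood formation, had 7.59, 8.83 and 7.77 downstream and 5.81, 4.41 and 3.89 upstream, although no summit lay inside the downstream window in any list. The downstream starts of Runx2 and Runx1 came only from incomplete transcripts. Runx3 had 5.36, 5.19 and 4.47 downstream and 2.68, 4.41 and 4.47 upstream, so that both starts were equal in HG+miR-93. Gnas, which encodes the stimulatory G protein subunit from an imprinted locus, had 9.83, 8.05 and 5.83 downstream and 4.91, 3.38 and 4.08 upstream. In Runx2, Runx1 and Gnas the downstream window was the higher in all lists by pileup. By fold the upstream window of Runx1 was the higher in NG. No summit lay inside the upstream window of Gnas in any list, and those of its highest-fold peaks lay at -583, 1703 and 998 nt. The highest-fold upstream peaks of Runx1 also had their summits outside the window, at -2200, 917 and -1939 nt.

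Cdkn2a, which makes a pair of unrelated cell cycle inhibitors from its promoters, had an upstream pileup of 7.15, 9.09 and 7.58 and a downstream pileup of 5.36, 3.64 and 3.30, with the intervals apart in both high-glucose lists. Pparg had 3.57, 4.41 and 5.83 upstream and 3.57, 3.12 and 2.53 downstream, with overlapping intervals in each list. Mitf, the pigment cell regulator, had 7.15, 5.71 and 6.80 upstream and 4.91, 4.15 and 4.08 downstream, yet its fold was the lower upstream in all lists (1.16, 0.979 and 1.11 against 2.44, 1.72 and 2.09), where the input's local mean was 6, 7 and 6. Here fold and pileup gave opposite directions. No summit lay inside the downstream window of Mitf in any list, and those of its highest-fold peaks lay at 2408, 2288 and -1930 nt.

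Trp63 and Trp73 are relatives of p53. Trp63 had 3.13, 1.82 and 2.33 upstream and 3.57, 2.34 and 2.92 downstream, and Trp73 had 5.81, 5.19 and 4.28 upstream and 3.57, 3.64 and 4.47 downstream, with no summit inside either window of Trp73 in any list. Mylk, the myosin light chain kinase, had 4.02, 3.12 and 3.11 upstream and 6.70, 4.41 and 5.05 downstream, where no summit lay inside the window. The cytolinker Dst had 4.47, 4.93 and 4.47 upstream and 3.13, 4.93 and 4.28 downstream. For Plec, another cytolinker, the downstream pileup was 4.02, 12.5 and 10.5, but the summits of the highest-fold peaks of the high-glucose lists lay at -8230 and -8246 nt from the start, and the upstream pileup was 6.25, 7.01 and 6.02. The downstream starts of Dst and Plec came only from incomplete transcripts. The intervals of Trp63, Trp73, Mylk, Dst and Plec overlapped in every list.

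The counts of the other gene groups are read against all members, of which the upstream window was higher in all lists in 52.6% by pileup and 28.1% by fold, and the downstream window in 9.25% and 12.2%. Incomplete downstream starts made up 43.6% over all members. They were found in 15 of 24 podocyte, 9 of 16 matrix, 6 of 12 MAP kinase and 7 of 20 glucose members. In chromatin regulators the count was 30 of 40 and in linkers 19 of 34, and its part was not tested. A CpG-rich upstream window was found in 53.6% of all members. By group it was found in 16 of 24 podocyte, 13 of 16 matrix, 10 of 12 MAP kinase and 13 of 20 glucose members. Chromatin regulators had it in 28 of 40 and linkers in 25 of 34, and its part in the counts below was not tested. Itgb1, Anln, Rock2, Col5a1, Rps6ka5, Atf2, Hdac4, Kmt2e and Ezh2 had incomplete downstream starts, and the other members described from these groups had complete ones. Of 45 podocyte genes listed, 24 were members, and the upstream pileup was higher in all lists in 17 and the downstream in 3, against 10 and 4 by fold. Itgb1, the integrin subunit that anchors podocytes, had an upstream pileup of 10.7, 12.7 and 10.7 and a downstream pileup of 4.91, 4.67 and 4.28. Anln, an actin-binding protein, had 8.93, 6.75 and 8.16 upstream and 2.23, 2.60 and 2.92 downstream.

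Of 37 matrix and TGF-beta genes, 16 were members, with upstream higher by pileup in all lists in 13 and downstream in none. By fold these counts were 4 and 1. In the single lists the upstream fold was higher in 9, 10 and 7 and the downstream in 7, 6 and 9. The median log2 ratios were 0.25, 0.23 and -0.29, against 0.19, 0.10 and 0.05 over all members. The downstream fold was higher in 34.4%, 38.7% and 42.5% of all members. Rock2, a kinase of the actin cytoskeleton, had 11.6, 10.6 and 11.7 upstream and 2.68, 2.08 and 1.94 downstream. Smad2, a transducer of TGF-beta signals, had 13.4, 13 and 12 upstream and 3.57, 2.08 and 1.55 downstream. Col5a1, a chain of type V collagen, had 4.02, 6.23 and 5.64 upstream and 3.13, 5.45 and 4.47 downstream. By fold its direction was the opposite, with log2 ratios of -0.37, -0.16 and -1.16.

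Of 35 MAP kinase and AP-1 genes, 12 were members, 9 with upstream higher by pileup in all lists and 1 with downstream, which was Atf3. By fold the counts were 5 and 1. Rps6ka5, a histone kinase gene, had an upstream pileup of 12.5, 18.4 and 14.6 and a downstream pileup of 2.68, 2.60 and 3.50. Atf2 had 15.2, 16.6 and 12 upstream and 3.13, 2.60 and 1.36 downstream, and the kinase gene Mapk9 had 10.3, 8.31 and 8.75 against 3.13, 2.60 and 2.92. None of Fn1, Ccn2, Rock1, Fos, Jun and Junb had starts far enough apart to be a member.

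Of 43 glucose and insulin genes, 20 were members, 13 with upstream higher by pileup in all lists and 3 with downstream. By fold the counts were 7 and 3. In the single lists the upstream fold was higher in 13, 9 and 13 and the downstream in 7, 11 and 6. Over all members the downstream fold was higher in 34.4%, 38.7% and 42.5%. Grb10, an adaptor that restrains insulin signalling, had 6.70, 4.15 and 4.28 upstream and 2.23, 1.82 and 2.92 downstream, but the summits of its highest-fold upstream peaks lay 3087, 2459 and 1837 nt beyond the start. Pfkm, the muscle phosphofructokinase, had 9.83, 9.09 and 7.58 upstream and 4.91, 5.45 and 6.22 downstream, with its upstream summits outside the window at 878, 862 and 993 nt and its downstream summits inside. Of 59 chromatin regulators, 40 were members, 29 with upstream higher by pileup in all lists and 2 with downstream, against 14 and 5 by fold. Hdac4, a histone deacetylase, had 17.4, 15.1 and 12.2 upstream and 3.57, 3.90 and 3.30 downstream. Kmt2e, of the histone methyltransferase family, had 16.5, 16.6 and 11.9 against 3.13, 2.34 and 1.94, with no summit inside its upstream window and those of the highest-fold peaks at -1308, -1125 and -1384 nt. Ezh2, the Polycomb methyltransferase, had 12.1, 9.61 and 6.41 against 3.57, 3.90 and 3.11, and its upstream summit lay outside the window in HG+miR-93. Of 47 actin and microtubule linkers, 34 were members, 17 with upstream higher by pileup in all lists and 7 with downstream, against 13 and 5 by fold. Myo10, a myosin of filopodia, had 16.5, 22.3 and 19.6 upstream and 5.36, 5.71 and 4.86 downstream. The spectrin gene Sptan1 had 12.1, 13.5 and 6.80 against 3.57, 2.86 and 2.92, and Sptbn1 10.3, 7.53 and 7.0 against 7.59, 4.67 and 4.47.

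Between conditions, the direction within a gene held more often by pileup than by fold. The same window was higher in all lists in 40.3% of genes by fold (38.9 to 41.7), 1345 upstream and 582 downstream, and in 61.9% by pileup (60.5 to 63.2), 2516 upstream and 442 downstream. By fold, 99 genes turned with at least 1.5 times in each direction between NG and HG+NT, 53 between both high-glucose lists and 112 between NG and HG+miR-93. By pileup 7, 5 and 14 did so. The intervals were apart in opposite directions in different lists in 1 gene, Agfg2. Its downstream pileup was 24.1 (18.1 to 31.5), 2.60 and 2.72, with upstream values of 8.04, 8.83 and 7.97, and no summit lay inside its downstream window in any list.

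The advantage of the upstream start was smaller in the high-glucose lists. The median log2 ratio of the upstream to the downstream fold was 0.19, 0.10 and 0.05. Within genes it moved by a median of -0.05 for HG+NT minus NG, -0.04 for HG+miR-93 minus HG+NT and -0.10 for HG+miR-93 minus NG. With transcripts of complete 5′ ends alone (3218 genes), these medians were 0.00, -0.01 and -0.02. The depth of the lists rose in the same order as the ratio fell, and its part in the change was not tested.

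Upstream windows were called changed in shares near those of all TSS windows, whereas downstream windows lay above them for higher and below them for lower calls. A change was called at 1.5 times or more after centring on the median of all TSS windows, which had moved by -0.14, -0.06 and -0.21 on the log2 scale. From NG to HG+NT, 12.6% of upstream and 15.5% of downstream windows were higher, with 13.1% of all TSS windows, and 11.7% and 9.26% were lower, with 12.2% of all. Between the high-glucose lists, with the mimic of miR-93 set against the nontargeting one, 8.77% and 11.1% were higher (9.42% of all) and 9.36% and 8.20% lower (9.44%). From NG to HG+miR-93, 12.5% and 18.5% were higher (13.2%) and 13.0% and 8.57% lower (12.6%). The downstream windows held more higher than lower calls in each pair, with 884 against 410 in the last. This direction rested on the centring: without it, 10.1% of downstream windows were higher and 15.2% lower in HG+NT than in NG, 8.95% and 10.4% between the high-glucose lists, and 10.2% and 16.2% between HG+miR-93 and NG. Upstream, the uncentred shares were 8.15% and 18.3%, 7.21% and 11.9%, and 6.47% and 23.2%. By pileup fewer windows were called from NG to HG+NT, 6.41% higher and 6.20% lower upstream and 9.57% and 3.78% downstream. For the calls by pileup and those without centring, no share over all TSS windows is given here. These calls cannot be read as particular to the members' windows. The Poisson intervals of the pileups were apart between NG and HG+NT in 42 upstream windows, 11 higher (0.230%) and 31 lower (0.647%) in HG+NT, and in 30 downstream windows, 15 in each direction (0.313%), against 0.344% higher and 0.601% lower over all TSS windows. Between the high-glucose lists, 3 upstream windows were higher and 21 lower with the miR-93 mimic (0.0626% and 0.439%) and 15 downstream windows higher and 11 lower (0.313% and 0.230%), against 0.165% and 0.530% over all. Between HG+miR-93 and NG the counts were 3 higher and 57 lower upstream (0.0626% and 1.19%) and 16 in each direction downstream (0.334%), against 0.157% and 1.28% over all.

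Both starts of a gene lie on the same chromosome, so the ratio within genes was set beside the shift of whole chromosomes. From NG to HG+NT the upstream windows of the 542 members on chromosomes 8, 15 and 19 differed by a median of 0.22 in log2 fold and the downstream windows by 0.28, against -0.03 and 0.05 for the 3969 members outside these chromosomes and chromosome 6. The ratio within genes differed by -0.07 on chromosomes 8, 15 and 19 and by -0.06 elsewhere. From NG to HG+miR-93 the values on chromosomes 8, 15 and 19 were 0.22 upstream, 0.42 downstream and -0.18 for the ratio, against -0.10 for the ratio elsewhere.

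**Figure D4:**
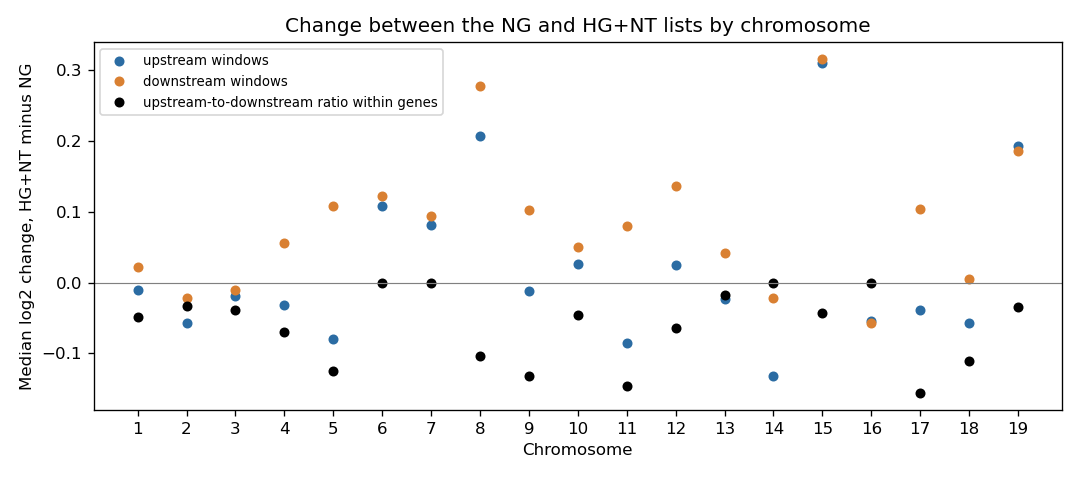
Median log2 change from the NG to the HG+NT list (vertical axis) of upstream windows, downstream windows and the ratio within genes, by chromosome, over the members on it. The windows of chromosomes 8, 15 and 19 stand highest, while the black points of the ratio lie between -0.16 and 0.00 on every chromosome.

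The largest changes of the ratio between lists were named by their size, 3 in each direction for each pair, among genes with a summit inside a window in both lists. The 18 entries, from 17 genes, changed by 1.94 to 3.07 on the log2 scale by fold. By pileup all kept their direction, 15 were smaller, and the median size was 1.04 against 2.39 by fold. The pileup intervals of a window were apart between the lists in 4 entries, which were Sestd1 for 2 pairs, Spg7 and Tsga10.

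Toward the upstream start from NG to HG+NT the genes were Sestd1, Spg7 and Desi2. At the downstream window of Sestd1 the NG peak had a pileup of 49.6 (40.8 to 59.7), with its summit 5805 nt beyond the start, against 3.38 and 3.30 in the high-glucose lists. Spg7, a mitochondrial protease, had an upstream pileup of 2.68, 13.5 and 4.08, and the summit of the highest-fold peak in HG+NT lay 2505 nt beyond the start. Toward the downstream start they were Ggnbp1, Gm12258 and Wdfy3, an autophagy adaptor, whose upstream pileup was 9.83, 4.67 and 5.64.

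Between the high-glucose lists the ratio moved most toward the upstream start in Bckdhb, Dmxl1 and Ces2a and toward the downstream start in Ptbp3, Smarca2 and Tsga10. The upstream pileup of Tsga10 was 13.8, 21.8 (17.4 to 27.0) and 1.75 (0.80 to 3.32), with the summits of its highest-fold peaks 1347 and 1311 nt beyond the start in the first lists and at -2 nt in HG+miR-93. That of Smarca2, an ATPase of the SWI/SNF remodelling complex, was 11.2, 11.2 and 10.3, while its upstream fold was 1.90, 2.34 and 1.13 and the input's local mean at the peak of highest pileup 5.4, 4.2 and 9. From NG to HG+miR-93 the genes were Sestd1, Idua and Otop2 toward the upstream start and Il18, Fnbp1 and Pecam1 toward the downstream start. Il18, a cytokine of the inflammasome pathway, had 8.49, 3.12 and 3.89 upstream and 2.68, 3.38 and 3.11 downstream, with overlapping intervals.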

How the data were processed

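DNase-Seq was run on 2 samples each of NG, HG+NT and HG+miR-93 podocytes and 1 genomic DNA input. Per the study's methods the authors trimmed reads (TrimGalore!), mapped them to mm10 (Bowtie), took out duplicates and ran MACS2 with the input as control. The submitters' processing notes also name CASAVA 1.8.2, and the settings of MACS2 are not given in the sources used here. The deposited lists, 1 per condition and pooled over its samples, give each peak's fold over input (a ratio), its -log10 p and -log10 q, and its summit. The 3 columns of -log10 q served 1 alternative only. No value per sample was used, and the depth is that of the pooled list.

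Fragments at each summit were recovered from fold and p, taking the input's local mean as the genome background or a multiple of 0.02 (200 bp reads in 10 kb). More than 99.8% of peaks had 1 solution. Pileup is fragments times the list's scale factor. Ratios of pileups had 1 added to each. The pileup, its interval, its fragments and the input's mean come from the peak of highest pileup overlapping a window by at least 1 bp, and the fold and summit from the peak of highest fold. Poisson, Wilson and binomial intervals cover counting error only, and genes are not replicates, so no p-value is given. Named genes were the members among the first 12 of the classical list, the 3 of each other list with the largest mean log2 ratio of folds in size, the 4 of largest ratio in each direction with a summit in the higher window, and the 3 of largest change per pair and direction. Some genes that this rule names are not reported here. The comparison of Poisson intervals was added after the values were seen. Members and lists were chosen with earlier results of these data known. Scripts were tested on simulated data (scipy 1.17.1, pandas 2.3.3 and numpy 2.4.6 under Python 3.11.15).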

Additional observations from a re-analysis of the deposited data

How the results depend on the processing

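No paired analysis was possible because each condition was 1 list pooled over its samples, and for the same reason no replicate could be left out. No median ratio or median change reversed, whereas without centring the downstream windows held more lower than higher calls. Values stayed within counting error, or counts of calls within 1.5 times, with the peak of highest -log10 p, with summits inside the window in both lists of a pair and without chromosomes 6, 8, 15 and 19. The values that moved further follow, and the cause was not tested. Values in a row of 3 are for NG, then HG+NT, then HG+miR-93, or for HG+NT against NG, then HG+miR-93 against HG+NT, then HG+miR-93 against NG. With the 50000 strongest peaks, the percent of upstream windows with a summit was 29.2, 31.5 and 26.6 and the percent of downstream windows with a summit was 6.41, 9.1 and 9.02. With peaks of a -log10 q of at least 2, the percent of upstream windows with a summit was 0.188, 0.626 and 0.0209 and the percent of downstream windows with a summit was 0, 0.0418 and 0. Without centring, the percent of upstream windows called higher was 8.15 (HG+NT over NG) and 6.47 (HG+miR-93 over NG) and the percent of upstream windows called lower was 18.3 (HG+NT over NG) and 23.2 (HG+miR-93 over NG). The percent of downstream windows called higher was 10.1 (HG+NT over NG) and 10.2 (HG+miR-93 over NG) and the percent of downstream windows called lower was 15.2 (HG+NT over NG) and 16.2 (HG+miR-93 over NG). With the peak whose summit was nearest the TSS, the percent of genes with upstream higher was 62.5 (NG) and the median log2 ratio was 0.26 (NG) and 0.13 (HG+NT). The median change of the ratio was -0.14 (HG+miR-93 minus NG) and the number of genes that turned was 152 (NG and HG+NT) and 80 (HG+NT and HG+miR-93). The percent with the same direction was 43.6. With peaks whose summit lay inside the window, the percent of genes with upstream higher was 68.8, 65.2 and 60.9 and the median log2 ratio was 0.38, 0.28 and 0.20. The median change of the ratio was -0.093, -0.086 and -0.21 and the number of genes that turned was 21, 11 and 20. The percent with the same direction was 58.6. By pileup, the percent of genes with upstream higher was 69.7, 68 and 68.5 and the median log2 ratio was 0.52, 0.34 and 0.30. The median change of the ratio was -0.15 (HG+miR-93 minus NG) and the number of genes that turned was 7, 5 and 14. The percent with the same direction was 61.9 and the percent of upstream windows called higher was 6.41, 1.36 and 6.45. The percent of upstream windows called lower was 6.2, 1.86 and 5.99 and the percent of downstream windows called higher was 9.57 (HG+NT over NG) and 1.94 (HG+miR-93 over HG+NT). The percent of downstream windows called lower was 3.78, 1.59 and 3.68 and the percent of genes with upstream above the midpoint was 74.3, 72 and 72.5. The percent of genes with downstream above the midpoint was 47.1 (NG) and 52.2 (HG+miR-93). By the percentile of the fold, the median log2 ratio was 0.43, 0.18 and 0.072 and the median change of the ratio was -0.14, -0.065 and -0.22. The number of genes that turned was 668, 513 and 721. With 250 nt on either side, the median log2 ratio was 0.22 (NG) and the percent with the same direction was 41.9. The percent of upstream windows with a summit was 48.4, 50.1 and 49.8 and the percent of downstream windows with a summit was 32.2, 28.5 and 29.1. With 1000 nt on either side, the median log2 ratio was 0.15 (NG) and the percent of upstream windows with a summit was 85.3, 81.3 and 81.9. The percent of downstream windows with a summit was 74.1, 64.1 and 65. With an overlap of at least 500 bp, the median log2 ratio was 0.23 (NG). With starts more than 10 kb apart, the percent of genes with upstream higher was 63.5, 58.5 and 55.1 and the median log2 ratio was 0.23, 0.13 and 0.083. The percent with the same direction was 42.6 and the percent of upstream windows with a summit was 72.3, 70.5 and 70.6. With starts more than 20 kb apart, the percent of genes with upstream higher was 64.9, 61 and 57.7 and the median log2 ratio was 0.25, 0.18 and 0.11. The number of genes that turned was 55, 27 and 56 and the percent with the same direction was 43.9. The percent of upstream windows with a summit was 73.2, 71.2 and 71.3 and the percent of downstream windows with a summit was 46.8 (HG+NT) and 46.9 (HG+miR-93). With complete 5′ ends alone, the percent of genes with upstream higher was 55.2 (NG) and 54 (HG+NT) and the median log2 ratio was 0.11 (NG) and 0.077 (HG+NT). The median change of the ratio was 0.00, -0.014 and -0.020 and the number of genes that turned was 34 (HG+NT and HG+miR-93) and 74 (NG and HG+miR-93). The percent of upstream windows with a summit was 64.9, 62.6 and 63.1 and the percent of downstream windows with a summit was 49.6 (HG+NT) and 47.6 (HG+miR-93). Without windows holding another gene's TSS, the percent of upstream windows with a summit was 68.5, 66 and 66.1.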
